A study of Mus musculus with 4 samples.

Results

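The cells described here were the mononuclear phagocytes of the mouse small-intestinal epithelial layer: macrophages, conventional dendritic cells and plasmacytoid dendritic cells. They were picked from single-cell counts by 3 gates set on transcript counts, where a unique molecular identifier (UMI) stands for 1 captured molecule and a barcode for 1 droplet. A barcode was kept if it had at least 500 UMIs and 250 genes and if mitochondrial genes made up at most 25% of its UMIs. A member then had no UMI of the B-cell genes Cd79a and Ms4a1, at most 1 UMI over Cd3d, Cd3e and Cd3g of the T-cell receptor complex, and less than 1% of its UMIs from the enterocyte gene Fabp1. The macrophage gate asked for at least 5 UMIs of the complement genes C1qa, C1qb and C1qc. The dendritic gate asked for the class II chaperone Cd74 at 0.5% of UMIs or more and at least 1 UMI over Itgax, Flt3, Cd209a and Xcr1. The plasmacytoid gate asked for at least 2 UMIs of Siglech, a receptor of plasmacytoid dendritic cells. Of 44277 barcodes 25788 were kept, and 131 of these passed at least 1 gate, 0.508% of the kept barcodes (95% exact Clopper-Pearson interval 0.425 to 0.603%).

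Male C57BL/6J mice were fed fat-rich chow (HFD) to which l-NAME, which blocks nitric oxide synthases, was added, from 8 weeks of age for 7 weeks. In 2 samples this diet had no further addition (control), and in 2 it also held 562.5 mg per kg of 3-indolepropionic acid (IPA), a tryptophan metabolite of gut bacteria. HFD and l-NAME were thus shared by both groups, and every sample pooled 2 mice aged 15 weeks. The epithelial layer of jejunum and ileum was shaken off with EDTA and DTT after the Peyer's patches had been cut out, and DAPI-negative live cells were sorted for droplet sequencing, so the lamina propria, where most gut phagocytes lie, was not the tissue aimed at. The deposited matrix separates 4 libraries by a number on each barcode. Nothing in the labels or headers ties a number to a diet, so the libraries are given as 1 to 4, no diets are compared, and no p-value is printed: the matrix counts as 1 sample, and every interval covers counting error only.

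Gut macrophages are replenished largely from blood monocytes, take up dying cells and bacteria, and are known for the colony-stimulating factor receptor Csf1r, the chemokine receptor Cx3cr1 and the complement C1q chains. Conventional dendritic cells carry antigen to T cells. Those of type 1 depend on Irf8 and Batf3, bear Xcr1 and Clec9a and present antigen of dead cells on class I molecules, while those of type 2 bear Sirpa and, in part, Cd209a, and use Irf4. Plasmacytoid dendritic cells depend on Tcf4, carry Siglech and Bst2, reach the small intestine through Ccr9 and are known as makers of type I interferon.

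The members were spread very unevenly over the libraries. Library 1 held 54 members among 6174 kept barcodes, 0.875% (95% interval 0.658 to 1.14%), and library 3 held 73 among 6307, 1.16% (0.908 to 1.45%). Library 2 held 1 among 7122, 0.0140% (0.000355 to 0.0782%), and library 4 held 3 among 6185, 0.0485% (0.010 to 0.142%). Other immune barcodes followed the same split. Barcodes with at least 3 Cd3 UMIs and Fabp1 below 1% numbered 314, 4, 1210 and 5 in libraries 1 to 4, and those with B-lineage transcripts 104, 7, 154 and 11. The intervals of libraries 1 and 3 overlapped for the whole set of members, and both lay above those of libraries 2 and 4. Fewer phagocytes in the tissue and fewer immune cells of any kind recovered in the suspension cannot be told apart.

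Of the members, 38 passed the macrophage gate (26, 0, 10 and 2 in libraries 1 to 4), 100 the dendritic gate (44, 1, 52 and 3) and 31 the plasmacytoid gate (6, 0, 25 and 0). The macrophage gate took 0.421% (0.275 to 0.616%) of kept barcodes in library 1 and 0.159% (0.0761 to 0.291%) in library 3. The plasmacytoid gate took 0.0972% (0.0357 to 0.211%) in library 1 and 0.396% (0.257 to 0.585%) in library 3. These intervals met for macrophages and did not meet for plasmacytoid barcodes. The dendritic gate took 0.713% (0.518 to 0.956%) and 0.824% (0.616 to 1.08%), which overlapped widely. No macrophage barcode was found in library 2, where 3 counts would be 0.0421% of kept barcodes, and no plasmacytoid barcode in libraries 2 and 4. Counts rest on libraries 1 and 3: without library 1 there were 77 members, of which 12 passed the macrophage and 56 the dendritic gate, and without library 3 there were 58, of which 6 passed the plasmacytoid and 48 the dendritic gate.

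**Figure D1:**
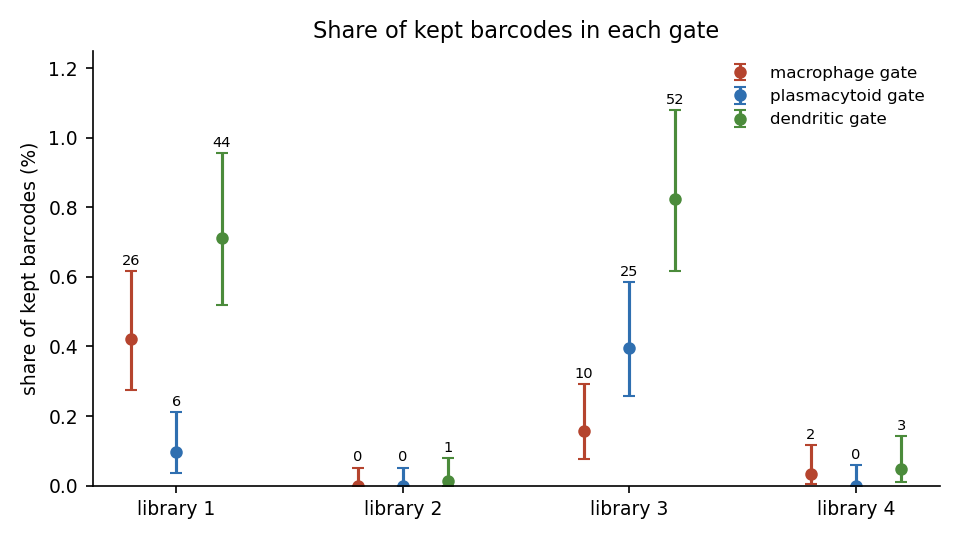
Share of kept barcodes (%, y axis) that passed each of the 3 gates in each of the 4 libraries (x axis), with 95% exact binomial intervals as bars. Libraries 1 and 3 hold nearly all of the members, and the plasmacytoid share is 0.0972% in library 1 and 0.396% in library 3.

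The gates overlapped, since macrophages also carry Cd74 and Itgax. Both the macrophage and the dendritic gate were passed by 26 barcodes, both the plasmacytoid and the dendritic gate by 12, and all 3 by 1. For gene levels each barcode was therefore put in 1 group, the macrophage gate going first and the plasmacytoid gate next. This gave a macrophage group of 38 barcodes (26, 0, 10 and 2 in libraries 1 to 4), a plasmacytoid group of 30 (5, 0, 25 and 0) and a dendritic group of 63 (23, 1, 38 and 1). Median depth was 5713 UMIs (771 to 35279) in the macrophage group, 6751 (1388 to 42755) in the plasmacytoid group and 13754 (5596 to 34707) in the dendritic group. Median mitochondrial shares were 3.39%, 6.65% and 3.73%. Shares of barcodes with a UMI therefore favour the dendritic group, which had the most UMIs per barcode.

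The values that chose the members separated the groups widely. The macrophage group held 5 to 355 C1q UMIs per barcode with a median of 65, against at most 1 in the plasmacytoid and at most 2 in the dendritic group. The plasmacytoid group held 6 to 32 Siglech UMIs with a median of 19, the macrophage group at most 2 and the dendritic group 0. Cd74 made up a median of 3.37% of UMIs in the macrophage group (0 to 5.25%), 0.452% in the plasmacytoid group (0 to 1.13%) and 2.56% in the dendritic group (0.728 to 5.30%). Few barcodes lay near a limit. With all other conditions met, 1 barcode had exactly 5 C1q UMIs, 1 had 4 and 0 had 3, and 1 barcode had 2 Siglech UMIs, 6 had 1 and 0 had 3 to 5. The dendritic limit was less sharp: among barcodes with Cd74 at 0.5% or more, 161 had no UMI of Itgax, Flt3, Cd209a and Xcr1 and stayed outside, and 12 entered with 1 UMI.

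Of the 5 markers given for these cells, Cd74, Cd209a, C1qa, Lyz2 and Siglech, all 5 were found in the macrophage group, all but Lyz2 in the plasmacytoid group and all but Siglech in the dendritic group. Cd209a stood at 408.9 CPM (a gene's counts per 1000000 of the group's summed UMIs) in the dendritic group, 118 in the plasmacytoid group and 3.34 in the macrophage group. Because droplets also take up free RNA, every barcode was thinned to 2000 UMIs and compared with barcodes of enterocytes (Fabp1 at 1% or more, no Ptprc). After thinning, Siglech was found in 29 of 29 plasmacytoid barcodes deep enough, C1qa in 97.0% and Lyz2 in 93.9% of 33 macrophage barcodes, and Cd209a in 42.9% of 63 dendritic barcodes. None of these genes was found in 1000 thinned enterocyte barcodes, which allows a share of up to 0.368% (95% interval). Siglech, C1qa and Cd209a are gate genes, so their shares in the groups follow from the gates and test nothing. Lyz2 is not a gate gene. Cd74 was found in 9.70% of the thinned enterocyte barcodes and in 6.2% of 1000 thinned T-cell barcodes. Low Cd74 counts in a barcode therefore cannot be told from free RNA. Whether enterocytes made part of their Cd74 themselves was not tested. Before thinning, at a median of 29443 UMIs per enterocyte barcode, the shares there were 29.1% for Cd74, 0.623% for Lyz2, 0.161% for C1qa, 0.0321% for Siglech and 0.0193% for Cd209a.

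Gene levels are compared as CPM in the 3 groups. A gene is called for a group when its CPM plus 50 was at least 2-fold the higher of the other groups' CPM plus 50. Of 9039 genes with at least 10 UMIs over the members, outside the gate genes and mitochondrial genes, 205 were called for the macrophage group (2.27%), 233 for the plasmacytoid group (2.58%) and 87 for the dendritic group (0.962%). The gates were set on transcripts of the same barcodes, so these calls describe what the gates collected and test nothing. The counts depended on how barcodes with several gates were placed. Taking barcodes of exactly 1 gate left out 26 of the 38 macrophage-gate barcodes, those that also passed the dendritic gate. The macrophage count was then 279, with 101 of the 205 genes in both sets. The dendritic count was 175, with 78 of the 87 in both. When each barcode counted in every gate it passed, the macrophage count was 136 and the dendritic count 59.

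**Figure D2:**
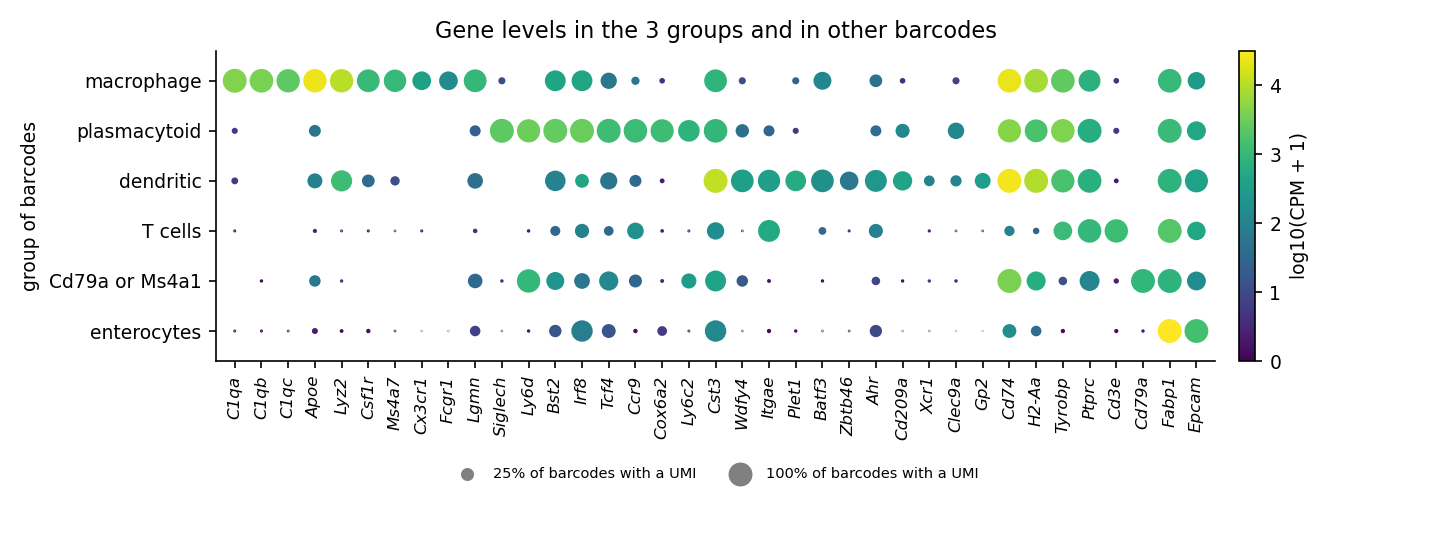
Levels of marker genes and leading genes in the 3 groups, in enterocyte barcodes and in T-cell and B-lineage barcodes. Each dot stands for a gene (x axis) in a group of barcodes (y axis), its colour for log10 of CPM plus 1 and its size for the share of barcodes with a UMI. Apoe, Csf1r and Ms4a7 fill the macrophage row, Ly6d, Tcf4 and Ccr9 the plasmacytoid row, and Cst3, Plet1 and Gp2 the dendritic row.

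The macrophage group was led by Apoe, the lipid-carrying apolipoprotein E that tissue macrophages secrete. Its level was 23440 CPM (95% Poisson interval 22895 to 23995), against 50.4 CPM in the plasmacytoid and 89.0 CPM in the dendritic group, and 1.39 CPM in enterocyte barcodes. By barcode it ran from 0 through a median of 34060 to 55772 CPM, and 35 of the 38 barcodes lay above every other member. Library 1 stood at 25431 CPM and library 3 at 14699 CPM, and both were far above the other groups. Apoe exceeded 1% of UMIs in 33 of the 38 barcodes, 24 of library 1, 7 of library 3 and both of library 4.

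The genes that define macrophages were mostly found with it. Of 22 measured genes of a macrophage list, 14 were called for this group, 1 for the plasmacytoid group and 0 for the dendritic group. The growth factor receptor Csf1r stood at 1077 CPM, with a UMI in 34 of 38 barcodes, against 0 UMIs in the plasmacytoid group (3 counts would be 12.6 CPM) and 37.2 CPM in the dendritic group. Its levels were 1282 CPM in library 1 and 627 in library 3. The membrane protein Ms4a7 stood at 1024 CPM against 0 and 11.3. Cx3cr1 was at 367 CPM and the high-affinity antibody receptor Fcgr1 at 147 CPM, each found in 22 of the 38 barcodes and in no other member. Adgre1, which encodes F4/80, was found in 22 barcodes at 160 CPM and in 15 dendritic barcodes at 18.0 CPM. The mannose receptor Mrc1 was found in 15 macrophage barcodes and no other member. Adamdec1, a metalloprotease of gut macrophages, stood at 1074 CPM with a UMI in 29 barcodes, but in 23 of 26 of library 1 and 4 of 10 of library 3. Markers of long-lived tissue macrophages were scarce: Timd4 was found in 7 barcodes, Folr2 in 2 and Lyve1 in 1, and none of these 3 was called.

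The summed macrophage list made up a median of 1.66% of UMIs in the macrophage group, 0.0971% in the plasmacytoid and 0.121% in the dendritic group. Not every barcode of the macrophage gate had it. In 2 of the 38, 1 each in libraries 1 and 3, Cd74 lay under 0.5% of UMIs, and the macrophage list came to 0.0534% and 0.0398% of UMIs. The barcode in library 1 held 28089 UMIs, of which 2539 were Reg3b, an antimicrobial lectin of enterocytes, and 1576 were Fabp6, the ileal bile acid-binding protein. It held no UMI of Csf1r. That barcode gave 97.9% of the group's Reg3b and 99.4% of its Fabp6, so the group levels of 8648 CPM for Reg3b and 5286 CPM for Fabp6 describe 1 droplet. Without library 1 Reg3b was at 30.4 CPM, and with barcodes of exactly 1 gate at 34255 CPM. For comparison, enterocyte barcodes held 9756 CPM of Reg3b.

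Lysozyme needs the same care. Lyz2, the lysozyme of myeloid cells, stood at 10209 CPM in the macrophage group, with a UMI in 36 of 38 barcodes. Its level was 8923 CPM in library 1, 3602 in library 3 and 33975 over the 2 barcodes of library 4. Those 2 barcodes held 1018 of the group's 3061 Lyz2 UMIs, and a single barcode of library 1 held 761. By barcode Lyz2 had a median of 4428 CPM. It was at 1259 CPM in the dendritic group, with a UMI in 48 of 63 barcodes, and at 0 UMIs in the plasmacytoid group. Lyz1, the lysozyme of Paneth cells and a near copy of Lyz2, was at 4683 CPM in the macrophage group, but 1 barcode of library 4 held 657 of its 1404 UMIs there (46.8%). Lyz1 exceeded 0.5% of UMIs in 3 macrophage barcodes, 1 of library 1 and both of library 4, and in all 3 Lyz2 exceeded 1%. The Paneth genes Defa24, Defa17 and Itln1 had no UMI in the barcode highest for Lyz1. How reads were shared between these paralogs is not given in the sources used here, so the split between Lyz1 and Lyz2 is uncertain. With barcodes of exactly 1 gate, which left out 26 of the 38 macrophage barcodes, Lyz1 was at 80.8 CPM.

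Chemokine transcripts were concentrated in the macrophage group, in which 12 of 17 measured chemokines were called, against 1 in the plasmacytoid and 2 in the dendritic group. Cxcl9, which draws T cells and is induced by interferon-gamma, stood at 394 CPM with a UMI in 20 of 38 barcodes, against 0 and 10.1 CPM. Pf4 stood at 334 CPM (16 barcodes), the neutrophil attractant Cxcl2 at 434 CPM (9 barcodes) and Ccl24 at 444 CPM (9 barcodes). Others came from very few droplets: Ccl9 at 247 CPM from 2, Ccl8 at 110 CPM from 3 and Ccl7 at 70.0 CPM from 1. Ccl3 was at 283 CPM in the whole group, 189 in library 1 and 685 in library 3. Of 13 genes of an interferon-gamma response list 5 were called for macrophages, Cxcl9, Cxcl10, Gbp7, Gbp4 and Gbp3, the last 3 being guanylate-binding proteins at 160, 103 and 96.7 CPM.

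Among cytokines, Il1b, the inflammatory interleukin 1 beta, was shared by macrophages at 650 CPM (22 of 38 barcodes) and the dendritic group at 807 CPM (31 of 63), with 0 UMIs in the plasmacytoid group. Its natural antagonist Il1rn was at 113 CPM in macrophages and 4.51 CPM in the dendritic group. Il22ra2, the soluble binding protein that neutralises interleukin 22, reached 1191 CPM in macrophages from 3 barcodes and 135 CPM in the dendritic group from 4. Tgfb1 was present in all groups at 377, 227 and 246 CPM in macrophage, plasmacytoid and dendritic barcodes. Of 12 measured cytokines, 3 were called for the macrophage group (Il22ra2, Pdgfa and Il1rn) and 0 for either other group.

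Of 18 measured genes for phagocytosis and uptake of dead cells, 9 were called for the macrophage group and 0 for the others. Among these, the Fc receptor chain Fcer1g stood at 2061 CPM against 781 and 367, and the scavenger receptors Stab1 and Msr1 at 210 and 160 CPM, with 0 UMIs in the plasmacytoid group. Axl, a receptor for dying cells, was at 147 CPM in 24 barcodes, while its relative Mertk was at 50.0 CPM in 11 and was not called. Of 8 complement genes beyond C1q, 5 were called: properdin (Cfp, 434 CPM), factor B (Cfb, 163 CPM), the anaphylatoxin receptors C3ar1 (160 CPM) and C5ar1 (127 CPM), and Cd93 (73.4 CPM). Of 18 lysosomal genes 6 were called for macrophages, with Lamp1 at 1241 CPM against 202 and 184, and Cd63 at 1081 against 29.4 and 52.9. Of 12 lipid-handling genes 6 were called for the macrophage group, in which all 12 had their highest level. Lpl, the lipoprotein lipase, was at 287 CPM but came from 2 barcodes, as did the monocyte gene Fn1 at 440 CPM. Of 15 measured genes of a monocyte list, 5 were called for the macrophage, 2 for the plasmacytoid and 1 for the dendritic group. Its most abundant member, Plac8, had 2236 UMIs over the members and was not called for any group. Ccr2, the receptor by which monocytes enter tissue, was found in 8 of 38 macrophage barcodes at 290 CPM, and Ly6c2 of inflammatory monocytes in 0.

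Of 26 measured genes of a plasmacytoid list, 22 were called for the plasmacytoid group and 0 for the other groups. All 26 had their highest level in the plasmacytoid group. The summed list made up a median of 2.62% of UMIs, against 0.381% in macrophages and 0.0913% in the dendritic group, and 29 of the 30 barcodes lay above every other member. The exception was a barcode of library 3 with 42755 UMIs, the deepest of the members, in which the list reached 0.632%.

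**Figure D3:**
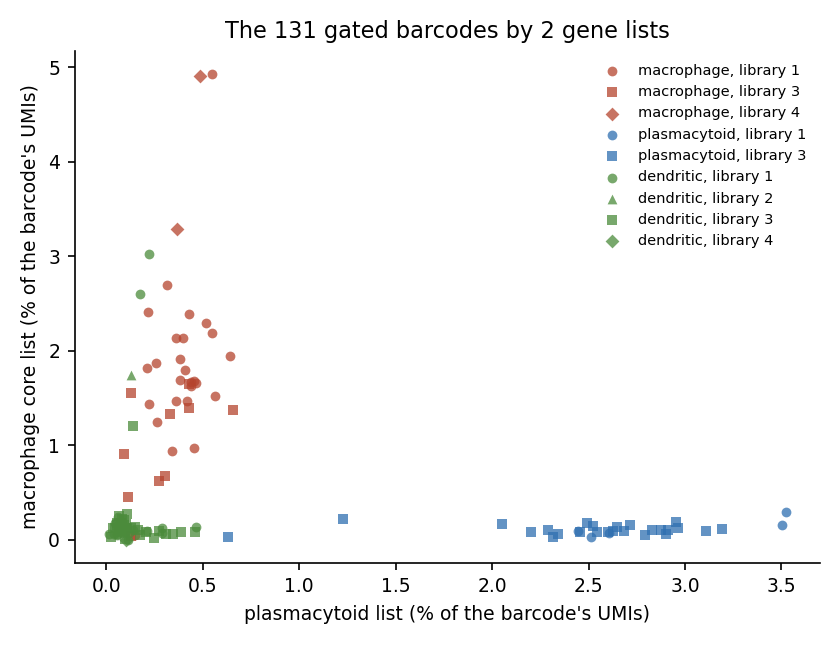
The 131 gated barcodes plotted by the summed share of UMIs from a plasmacytoid gene list (x axis, %) and a macrophage gene list (y axis, %), coloured by group, with a marker shape for each library. Plasmacytoid barcodes lie to the right at a median of 2.62%, macrophage barcodes at a median of 1.66% on the y axis, and 2 macrophage-gate barcodes lie near 0 on both.

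The transcription factors Irf8 and Tcf4 were found in every barcode of this group. Irf8, needed by plasmacytoid and type 1 dendritic cells, was found in 30 of 30 barcodes at 2965 CPM (2751 to 3192), against 440 and 437 CPM in the macrophage and dendritic groups. Tcf4, the master regulator of the lineage, was found in 30 of 30 at 1281 CPM, against 63.4 and 56.3. By barcode Tcf4 ran from 164 through 1346 to 3680 CPM, and 29 of 30 lay above every other member. The partners Spib and Runx2 were at 336 and 517 CPM, against at most 30.02 CPM elsewhere, and Bcl11a was at 559 CPM, against 6.67 and 80.0.

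Surface and secreted products followed the same division. Ly6d, a surface protein shared with the lymphoid lineage, was at 3024 CPM in 28 of 30 barcodes and at 0 UMIs in every other member. Its level was 5740 CPM over the 5 barcodes of library 1 and 2564 CPM over the 25 of library 3, and it was at 987 CPM in B-lineage barcodes. Plasma cell markers made up 60.6% of the UMIs of the B-lineage barcodes, which lowers the CPM of other genes there. Ly6d was found in 262 of those 276 barcodes. Bst2, the antiviral tetherin, was at 2579 CPM against 427 and 96.9. The gut-homing receptor Ccr9 was at 1163 CPM in 29 of 30 barcodes, with 1044 in library 1 and 1184 in library 3, against 56.7 and 33.8 in the macrophage and dendritic groups and 183 CPM in T cells. The muscle-type respiratory subunit Cox6a2 was at 1273 CPM, against 3.34 and 1.13. The kallikrein Klk1, at 491 CPM in 19 of 30 barcodes, had no UMI in any other member. Ly6c2 was at 819 CPM in 24 of 30 barcodes and absent from all other members.

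Sensor and interferon response lists gave 1 called gene of 18 each for the plasmacytoid group. Among all measured genes the share was 2.58%, from which a count of 1 in 18 cannot be told apart. Of 18 pattern recognition genes 1 was called for the plasmacytoid group, Cd180, a relative of the endotoxin receptor, at 206 CPM against 30.02 and 33.8. Tlr7, the sensor of single-stranded RNA, was found in 10 of 30 barcodes at 54.6 CPM. Irf7 was found in 16 at 113 CPM, and neither gene was called. Of 18 genes of a type I interferon response list 1 was called for the plasmacytoid group, Bst2, and 0 for the others. The chemokine Ccl4, which draws T cells and monocytes, was at 1323 CPM in 21 of 30 barcodes, with 1305 in library 1 and 1326 in library 3, against 133 and 49.6 in the other groups and 564 CPM in T cells.

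Some lymphoid transcripts stood in the plasmacytoid group. Cd8b1 was found in 21 of 30 barcodes at 491 CPM and in no other member, against 43.5 CPM in T cells. Cd8a was at 256 CPM (T cells 1086 CPM) and Cd7 at 668 CPM in 30 of 30 barcodes (T cells 2976 CPM). Iglc3, a constant gene of lambda light chains, was at 1088 CPM in 26 barcodes, against 4753 CPM in B-lineage barcodes. Of 11 T-cell markers 8 were found, summing to between 0 and 0.414% of UMIs per barcode, while Cd3d, Trac and Trdc were at 0. Of 12 B-cell markers 3 were found and 9 were at 0, Pax5 and Ebf1 among them. The part that T or B transcripts have in these levels was not tested. Type 1 and type 2 dendritic genes were also present: Clec9a was found in 13 of the 30 barcodes at 113 CPM and the lectin Clec10a in 19 at 168 CPM.

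The dendritic group, like the macrophage group, held much class II transcript. The class II chains H2-Aa, H2-Ab1 and H2-Eb1 were at 9525, 9256 and 8338 CPM, against 7788, 7875 and 6654 in macrophages and 1630, 1105 and 714 in the plasmacytoid group. In the plasmacytoid group H2-Aa was at 4233 CPM over the 5 barcodes of library 1 and 1189 CPM over the 25 of library 3. Cst3, the cysteine protease inhibitor cystatin C, set the dendritic group apart at 11901 CPM (11675 to 12130), against 840 and 949 in the macrophage and plasmacytoid groups. By barcode Cst3 ran from 643 through 7514 to 46521 CPM, and 54 of the 63 lay above every other member. Plet1, a surface protein of intestinal dendritic cells and epithelial progenitors, was at 577 CPM in 46 of 63 barcodes, against 23.3 and 4.2, and at 0.126 CPM in enterocytes. Gp2, a glycoprotein known from M cells and pancreas, was at 313 CPM in 25 barcodes and at 0 UMIs in both other groups, where 3 counts would be 10.01 CPM (macrophage) and 12.6 CPM (plasmacytoid).

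Genes of the conventional dendritic lineage were found in most of these barcodes. The transcription factor Id2 was at 702 CPM in 60 of 63 barcodes, against 80.0 and 12.6. Zbtb46, which marks the conventional lineage, was found in 36 of 63 barcodes at 59.7 CPM and in no other member. Wdfy4, needed for cross-presentation, was at 329 CPM in 56 barcodes against 10.0 and 42.0. Itgae, which encodes the CD103 chain that binds E-cadherin on epithelium, was at 319 CPM in 54 barcodes, against 0 UMIs in macrophages, 29.4 CPM in the plasmacytoid group and 548 CPM in T cells. Itgae was 272 CPM in library 1 and 351 in library 3. Of 9 measured genes of a pan-dendritic list 3 were called for the dendritic group (Zbtb46, Cd83 and Cbfa2t3), and of 14 class II and processing genes 3 (Cst3, H2-DMb2 and H2-Ob). For macrophages the processing enzymes were called, the cathepsin Ctss at 2075 CPM against 558 in the dendritic group and the legumain Lgmn at 984 against 41.7. Ctss was at 563 CPM and Lgmn at 21.0 CPM in the plasmacytoid group.

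**Figure D4:**
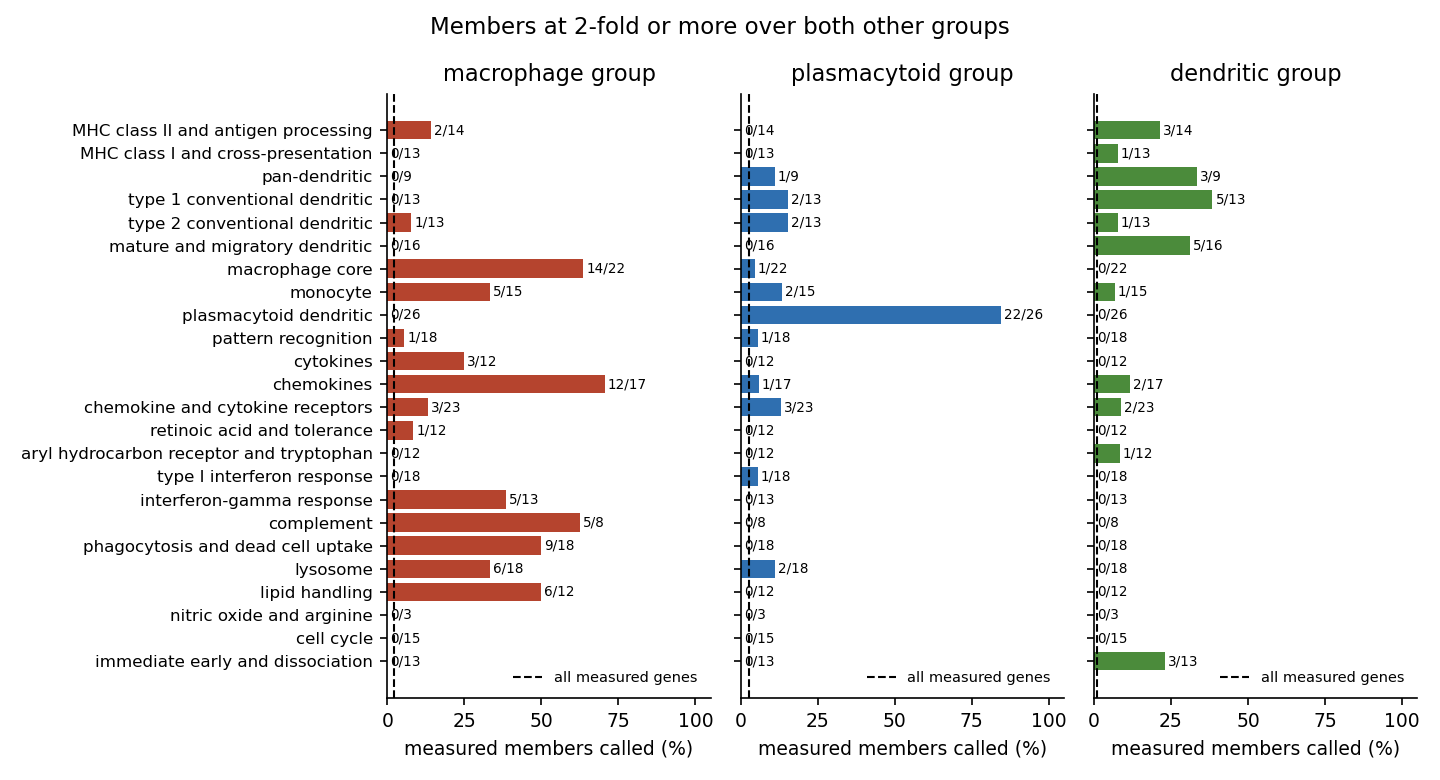
Share of the measured members of each gene list (x axis, %) that was called for the macrophage, plasmacytoid and dendritic group (3 panels), with the share among all measured genes as a line in each panel. The plasmacytoid list stands out in its panel with 22 of 26 genes and the chemokine and macrophage lists in theirs with 12 of 17 and 14 of 22, beside 2.58% and 2.27% of all measured genes.

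Within the dendritic group, barcodes were described by which subset receptor they held. Xcr1 or Clec9a was found in 11 (4 of library 1, 7 of library 3), Cd209a in 39 (13 and 26), neither in 13 (6, 1, 5 and 1 in libraries 1 to 4), and both kinds in 0. Xcr1 and Cd209a are gate genes, and the split was made after the values had been seen, so the levels below are a description. Irf8 followed the split closely. It was found in 11 of 11 Xcr1 or Clec9a barcodes at 1712 CPM (1537 to 1902), in 0 of 39 Cd209a barcodes, where 3 counts would be 5.46 CPM, and in 7 of 13 others at 296 CPM. The adhesion molecule Cadm1 was found in 11 of 11, 1 of 39 and 0 of 13.

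Of 12 measured genes of the type 1 list other than Clec9a, 10 were highest in the Xcr1 or Clec9a barcodes. The exceptions were Cd24a, highest in Cd209a barcodes (251 against 152 CPM), and the type 1 factor Batf3, at 207 CPM in Xcr1 or Clec9a barcodes, 147 in Cd209a barcodes and 229 in the others. Other genes also differed between these sets. Cst3 was at 27633 CPM in them, against 7448 in Cd209a barcodes and 6336 in the others. The sensors Tlr3, Tlr12 and Tlr11 were at 113, 108 and 68.9 CPM, against 1.82, 0 and 10.9 in Cd209a barcodes, although over the 3 groups Tlr12 was called for macrophages (190 CPM). The pore-forming protein Mpeg1 was at 689 CPM against 74.6, the lysosomal protein Psap at 3990 against 1110, and the peptide transporter Tap1 at 221 against 65.5. Btla, an inhibitory receptor, was found in 11 of 11 at 172 CPM and in 4 of 39 at 7.28 CPM. Of 13 measured genes of the type 1 list, 5 were called for the whole dendritic group (Wdfy4, Itgae, Cd24a, Naaa and Rtl8a, listed under an older symbol) and 2 for the plasmacytoid group (Irf8 and Cd8a).

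Of 12 genes of the type 2 list measured here other than Cd209a, 8 were highest in the Cd209a barcodes, 2 in the Xcr1 or Clec9a barcodes (Rbpj and Clec10a) and 2 in the others (Cd7 and Notch2). Over the 3 groups, 1 of 13 was called for the dendritic group (Klf4), 2 for the plasmacytoid group (Cd7 and Clec10a) and 1 for macrophages (Sirpa). Itgae was found in 38 of 39, Sirpa in 26, Itgam in 26 and Irf4 in 27, while in the Xcr1 or Clec9a barcodes Itgae was found in 10 of 11, Irf4 in 3 and Sirpa and Itgam in 0. Il1b was at 1256 CPM in 26 of 39 Cd209a barcodes and at 0 UMIs in the Xcr1 or Clec9a barcodes. The signalling adaptor Tyrobp was at 2208 CPM against 113 CPM, and its partner Fcer1g at 512 CPM in 38 of 39 barcodes against 0 UMIs. Plet1 was found in 37 of 39 at 848 CPM and in 5 of 11 at 128 CPM. Gp2 was found in 23 of 39 at 482 CPM and in 0 of 11. The decoy receptor Il1r2 (34 of 39) and the chemokine receptor Ccr1 (37 of 39) were likewise at 0 UMIs in the Xcr1 or Clec9a barcodes, where 3 counts would be 14.8 CPM.

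**Figure D5:**
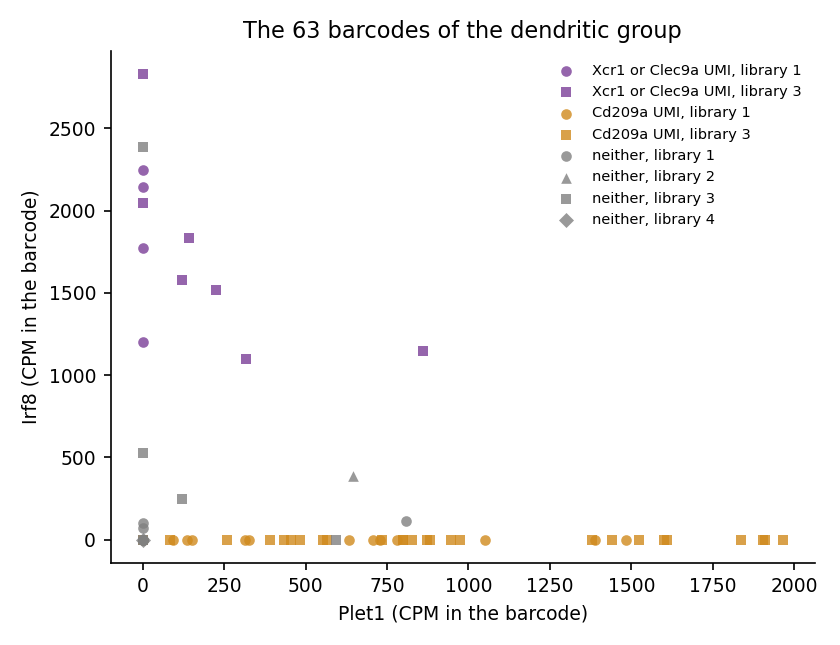
The 63 barcodes of the dendritic group plotted by Plet1 (x axis, CPM in the barcode) and Irf8 (y axis, CPM in the barcode), coloured by whether they held Xcr1 or Clec9a, Cd209a or neither, with a marker shape for each library. Irf8 is found in 11 of 11 Xcr1 or Clec9a barcodes and in 0 of 39 Cd209a barcodes, and Plet1 in 37 of the 39.

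The 13 barcodes with neither receptor were a mixture. Of 16 measured genes of mature, migrating dendritic cells 13 were highest there, while Cd86, Cd80 and Stat4 were not. Cd86 was at 88.8 CPM there, against 187 in Xcr1 or Clec9a and 228 in Cd209a barcodes. Il4i1, an enzyme that oxidises amino acids including tryptophan, was at 718 CPM in 7 of 13 barcodes, against 128 and 3.64 CPM in the Xcr1 or Clec9a and the Cd209a barcodes. Ccl22 was at 799 CPM in 4 of 13, the lymph node homing receptor Ccr7 at 489 CPM in 3 of 13, the actin bundler Fscn1 at 259 CPM in 3 of 13 and Relb at 296 CPM in 11 of 13. Il12b was at 348 CPM but from 1 barcode. Lyz2 was also highest in them, at 3627 CPM from 5 of 13 barcodes. In the dendritic group as a whole, 4 barcodes (2, 1, 1 and 0 in libraries 1 to 4) had Lyz2 above 1% of UMIs, and 4 had a summed macrophage list of 1.2% to 3.02% of UMIs, within the range of the macrophage group. Of 16 measured genes of the mature list, 5 were called for the dendritic group: Traf1, Ccl22, Ccr7, Tbc1d4 and Ccl17. Ccr7 itself was found in 5 of 63 barcodes.

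Genes of tolerance and of tryptophan sensing were measured because IPA is an indole. Aldh1a2, which makes retinoic acid and is known from gut dendritic cells, was found in 18 of 63 dendritic barcodes at 57.4 CPM, 1 of 38 macrophage barcodes and 0 of 30 plasmacytoid barcodes, and was not called. Within the dendritic group it was found in 8 of 11 Xcr1 or Clec9a barcodes at 138 CPM and 8 of 39 Cd209a barcodes at 16.4 CPM. The aryl hydrocarbon receptor Ahr, which binds indoles, was at 244 CPM (213 to 279) in 52 of 63 dendritic barcodes, against 46.7 CPM in macrophages (9 of 38) and 37.8 CPM in the plasmacytoid group (5 of 30). By library the dendritic level was 169 CPM in library 1 and 294 in library 3. It was 285 CPM in Xcr1 or Clec9a barcodes, 269 in Cd209a barcodes and 81.4 in those with neither. After thinning, Ahr was found in 34.9% (23.3 to 48.0%) of dendritic, 10.3% (2.19 to 27.4%) of plasmacytoid, 6.06% (0.743 to 20.2%) of macrophage, 1.40% of enterocyte and 17.3% (15.0 to 19.8%) of T-cell barcodes.

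Of 12 measured genes of the receptor and tryptophan list, Ahr was the 1 called for any group. It was called for the dendritic group, where the share among all measured genes was 0.962%. A count of 1 in 12 cannot be told apart from that share. The receptor's chaperone Hsp90ab1 was the most abundant member, at 934, 1210 and 1229 CPM in the macrophage, plasmacytoid and dendritic groups. Its repressor Ahrr was at 30.02, 0 and 12.4 CPM in the macrophage, plasmacytoid and dendritic groups, and its target Tiparp at 36.7, 12.6 and 56.3 CPM. The kynurenine enzyme Kmo was at 248 CPM in 23 of 30 plasmacytoid barcodes and 115 CPM in 47 of 63 dendritic barcodes. Nr1i2, the pregnane X receptor to which IPA binds, was at 16.7, 12.6 and 3.38 CPM, found in 5, 2 and 3 barcodes. Of the nitric oxide and arginine list 3 of 10 genes reached 10 UMIs (Arg2, Ass1 and Asl) and none was called. Cell-cycle genes were low, with 0 of 15 called for any group and Mki67 found in 5, 1 and 7 barcodes.

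Immediate early genes, which tissue dissociation is known to induce, were abundant. Junb was at 2038 CPM in the dendritic, 1024 in the macrophage and 210 CPM in the plasmacytoid group, and Fos at 1286, 1231 and 525. Of 13 genes of this list 3 were called for the dendritic group (Btg2, Ier2 and Nr4a1) and 0 for the others. Between libraries Junb in the dendritic group was at 1427 CPM in library 1 and 2432 in library 3. The part of the dissociation in any of these levels was not tested.

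Only the dendritic group held at least 20 barcodes in each of 2 libraries, 23 in library 1 and 38 in library 3. Of 6970 measured genes, 8 were at 2-fold or more in library 1 over library 3 (0.115%) and 16 in library 3 over library 1 (0.23%). Higher in library 1 were Lyz2, at 2251 against 546 CPM, and the heat shock genes Hspa1b, at 211 against 17.8 CPM, and Hspa1a, at 152 against 16.0. The heat shock genes were found in 10 of 23 barcodes each in library 1, and in 3 and 4 of 38 in library 3. Lyz2 was found in 18 of 23 and 29 of 38 barcodes, its medians were 218 and 183 CPM, and 1 barcode of library 1 held 36.7% of the group's Lyz2. Reg3b was also higher in library 1, at 224 against 42.8 CPM, a gene at 9756 CPM in enterocytes.

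Higher in library 3 was Gp2, at 465 against 55.1 CPM, found in 22 of 38 and 3 of 23 barcodes. Il1b was at 1043 against 418 CPM, in 19 of 38 and 11 of 23 barcodes. The selenium carrier Selenop was at 490 against 175 CPM, a gene at 1922 CPM in enterocytes, and the elastase Mmp12 at 160 against 42.2 CPM. Traf1 was at 223 against 71.4 CPM and the lectin Clec4n at 217 against 77.8. Gp2, Il1b and Clec4n were also higher in Cd209a barcodes than in Xcr1 or Clec9a barcodes. Cd209a barcodes made up 26 of 38 in library 3 and 13 of 23 in library 1. Among the Cd209a barcodes alone, Gp2 was found in 20 of 26 in library 3 and 3 of 13 in library 1. Cst3 exceeded 1% of UMIs in 19 of the 38 dendritic barcodes of library 3 and in 5 of the 23 of library 1. These are differences between 2 libraries of unknown diet, without a replicate check, and the part of the subset make-up in them was not tested.

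Transcripts of other cells were present at low levels. All 12 enterocyte markers were found in each group, summing to a median of 0.578% of UMIs in macrophages (0.266 to 7.16%), 0.540% in the plasmacytoid group (0.214 to 3.46%) and 0.358% in the dendritic group (0.214 to 6.43%), against 12.99% of the UMIs of enterocyte barcodes. Enteroendocrine markers summed to a median of 0 in each group, with 1 macrophage-gate barcode at 7.40%. Fibroblast markers were at 0 of 6, 0 of 6 and 1 of 6, and granulocyte and mast cell markers at 1, 0 and 3 of 14. Of the 131 members, 15 were among the 6% of barcodes with the highest doublet scores of their library, 2 in library 1 and 13 in library 3, and 4, 1 and 10 of them were in the macrophage, plasmacytoid and dendritic groups.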

How the data were processed

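Droplet libraries of 4 samples (2 control, 2 IPA) were sequenced. The deposited values are raw UMI counts per gene and barcode in 1 matrix of 32285 genes, per the file headers. Cell Ranger 6.1.1 and mm10 are named in the submitters' processing notes. Annotation and barcode filters were not given in the sources used here. No library was tied to a sample, so no planned diet test was run, and samples were not grouped for any value.

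Barcodes were gated as the report states, with numpy 2.4.6 and scipy 1.17.1 (Python 3.11.15). UMIs were summed over each group and divided by its total to give CPM. Totals were 299828 UMIs in the macrophage, 238088 in the plasmacytoid and 887756 in the dendritic group. Intervals are 95% exact Poisson for levels and Clopper-Pearson for shares. A count of 0 is read as a limit of 3 counts. PCR copies are removed by UMIs, and intervals cover counting error only. Doublets were scored per library with Scrublet in scanpy 1.11.5 and kept. Its automatic threshold marked 1 barcode each in libraries 2 and 4, so it did not work there. The call rule was tested on simulated data of 9039 genes. Of barcode sequences kept, 75 occurred in more than 1 library. Over all barcodes 214 did, among them that of 1 member.

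The members, the 24 gene lists and the 14 marker sets were chosen with earlier results of these data known. The plan was to name, per list, the genes with the most UMIs. Per group it took the 10 with the largest ratio of CPM plus 50 to the higher of the other groups. These needed at least 20 UMIs and a UMI in 25% of barcodes. The same rule named genes between libraries 1 and 3. Not all of these genes appear above, and several lists are shown by members with fewer UMIs. Further members that a result turned on, the genes of single droplets (Fabp6) and the genes that split the dendritic group were named after their values were seen. Of 381 genes in the lists, 379 were found by symbol. A few items are not reported here.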

Additional observations from a re-analysis of the deposited data

Results flagged for a closer look

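Outside the quality limits, 18489 barcodes were not used. Among them, 5 further barcodes met a gate, 2 in library 1 and 3 in library 3, and all 5 exceeded 25% mitochondrial UMIs. By gate, 2 passed the macrophage gate, 1 the plasmacytoid gate and 3 the dendritic gate. They were set apart because a signal of the gate genes appeared in barcodes that no comparison used. Libraries 2 and 4 gave none, as they gave 1 and 3 members inside the limits.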

How the results depend on the processing

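Alternatives changed the gate limits, the quality limits, the placing of barcodes with several gates, the scaling and the libraries used: 18 for numbers, 12 for shares and 23 for gene levels. Leaving out each library in turn gave 58 to 130 members, with 12 to 38 in the macrophage gate, 6 to 31 in the plasmacytoid gate and 48 to 99 in the dendritic gate. The lowest values came without library 1 (macrophage) and without library 3 (the others). The share of all members in library 3 was 0.904% with up to 50% mitochondrial UMIs allowed, against 1.16%, as more barcodes enter the denominator. Genes called numbered 180 to 277, 232 to 328 and 75 to 95 for the macrophage, plasmacytoid and dendritic groups without a library, with as few as 121 of 205 (without library 1), 125 of 233 and 58 of 87 (both without library 3) also in the full set. The macrophage count was 136 with each barcode counted in every gate it passed, and the dendritic count 59. With barcodes of exactly 1 gate the counts were 279 for macrophages (101 of the 205 in both) and 175 for the dendritic group (78 of the 87 in both). That setting left out 26 of the 38 macrophage-gate barcodes. Of 30 leading genes, 28 stayed above the other groups under all 23 alternatives. Reg3b in macrophages ran from 30.4 CPM, below another group, without library 1 to 34255 CPM with barcodes of exactly 1 gate. Without library 3 it was at 11200 CPM. Lyz1 was at 80.8 CPM, below another group, with barcodes of exactly 1 gate. Taking T cells in place of enterocytes as the free-RNA background gave a UMI of Cd74 in 14.0% of barcodes, Lyz2 in 0.130%, and Cd209a and Siglech in 0%, against 29.1%, 0.623%, 0.0193% and 0.0321%. T-cell barcodes had a median of 3856 UMIs and enterocyte barcodes 29443. Chosen after seeing the data, asking Cd74 of the macrophage gate left out 2 barcodes and gave 209, 256 and 79 called genes, and leaving out 8 members rich in epithelial markers gave 204, 235 and 86. No paired analysis was possible because no label ties a library to a sample or to a replicate number. With 38, 30 and 63 barcodes, levels under about 10 CPM rest on 3 counts or fewer in the macrophage group.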
